A study of Mus musculus with 6 samples.

Results

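The 28 genes described here encode proteins of peroxisome biogenesis and peroxisomal lipid oxidation and were chosen by symbol. Of these, 13 encode peroxins (*Pex2*, *Pex3*, *Pex5*, *Pex6*, *Pex7*, *Pex10*, *Pex11a*, *Pex11g*, *Pex13*, *Pex14*, *Pex16*, *Pex19* and *Pex26*), and 15 encode proteins of peroxisomal lipid import, oxidation and product release (*Abcd2*, *Abcd3*, *Acox3*, *Ehhadh*, *Hsd17b4*, *Acaa1a*, *Acaa1b*, *Scp2*, *Amacr*, *Eci2*, *Decr2*, *Pecr*, *Crot*, *Acot8* and *Acot4*). They are 28 of the 55401 genes counted, and all 28 were among the 16807 genes that passed the filter on low counts. Peroxisomes are small organelles that shorten very-long-chain and branched fatty acids by β-oxidation, carry out the opening steps of ether lipid synthesis and break down the hydrogen peroxide that their oxidases release. They are built by peroxins, the Pex proteins, which insert proteins into the peroxisomal membrane, import enzymes from the cytosol and divide the organelle. In thermogenic fat peroxisomes lie close to mitochondria and lipid droplets, and they are known to become more abundant in brown fat of animals kept in the cold.

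The measurements came from bulk RNA-seq of subcutaneous white adipose tissue (scWAT), with 3 libraries per group. The control libraries, which the labels call WT, came from male mice without Cre whose *Yap* and *Taz* alleles were floxed, and are named YT-FF here after the study's methods. The libraries labelled YT-AKO came from male mice of the genotype Yapfl/fl/Tazfl/fl;AdipoqCre, in which Cre is driven by the *Adipoq* promoter and acts in mature adipocytes, brown fat included. All mice were 8 weeks old and untreated, were kept at room temperature, and shared floxed alleles of mixed C57BL/6–129 background. The labels do not say whether the libraries of a group came from separate animals (the study's methods give 3 mice per group), so p-values measure the spread between these libraries. scWAT holds stromal, vascular and immune cells beside adipocytes, and in such bulk tissue fewer cells of a type and less RNA per cell cannot be told apart.

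The libraries held 17740987 to 21838493 counted fragments. Levels are given in CPM, counts scaled to the size of each library with the TMM factors of edgeR. Changes are given as log2 fold changes of the libraries labelled YT-AKO over YT-FF with their standard error (SE). They were tested with the quasi-likelihood method of edgeR, and p-values were adjusted by Benjamini-Hochberg over the 16807 genes. A gene was called at an adjusted p under 0.05. The targeted genes were examined first. *Yap1* fell by 0.98 on the log2 scale (adjusted p = 0.0179), whereas *Wwtr1*, which encodes TAZ, was higher by 0.89 (adjusted p = 0.0220), against its label. The rise of *Wwtr1* was not called with library totals alone (adjusted p = 0.0799). Without YT-FF 1 and without YT-FF 2 neither gene was called (adjusted p = 0.120 and 0.123 for *Wwtr1*, 0.110 and 0.111 for *Yap1*). At the protein level, the study reports by immunoblot that YAP and TAZ were clearly reduced in scWAT of YT-AKO mice. Counts over all exons of a gene may not show the loss of a single floxed exon, and the libraries are therefore called by their labels wherever a direction is given. YT-AKO 2 stood apart, with a TMM factor of 0.777 against 0.954 and 0.955 in YT-AKO 1 and YT-AKO 3. Among marker lists, the 8 beige and brown adipocyte markers summed to 173 to 246 CPM in YT-FF and to 1668 to 3618 CPM in the libraries labelled YT-AKO, with 6 of 8 called higher, and the 10 adipocyte markers to 18110 to 23830 and 40240 to 84270 CPM, with 4 of 10 called higher. The adipocyte sum was led by *Cfd*, at 5341 to 5902 CPM in YT-FF and 18700 to 48820 CPM in the libraries labelled YT-AKO. *Fabp4* followed, at 4072 to 7199 and 9159 to 20230 CPM. *Lipe* and *Pnpla2* were called higher as well, whereas *Plin1*, *Cidec*, *Pparg*, *Retn* and *Lep* were not called. *Adipoq* itself was measured at 1473 to 2402 CPM over all libraries, with a log2 fold change of 0.43 that was not called (adjusted p = 0.176). The 7 B cell markers summed to 1009 to 1166 and 597 to 960 CPM, with 4 of 7 called lower, and the 6 macrophage markers to 1048 to 1227 and 1389 to 1693 CPM, with 0 of 6 called. In the same order of groups, T cell markers summed to 345 to 548 and 308 to 717 CPM, Schwann cell markers to 259 to 328 and 210.4 to 329 CPM, fibroblast and progenitor markers to 3741 to 4698 and 4169 to 7012 CPM, endothelial markers to 539 to 559 and 385 to 487 CPM, hepatocyte markers to 1831 to 2387 and 2610 to 3901 CPM, and epithelial markers to 3.66 to 5.10 and 3.84 to 4.88 CPM. The 7 skeletal muscle markers reached 3034 CPM in YT-AKO 1 against 125 to 445 CPM in the other libraries, and the hepatocyte markers *Ttr* and *Apob* and the epithelial markers *Krt5* and *Krt14* had at most 3 counts in every library. The part of these differences in the results below was not tested.

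Of the 28 peroxisomal genes, 12 rose in the libraries labelled YT-AKO (42.86%), against 12.6% of all tested genes, and none was called lower, against 9.01%. The risers were the peroxins *Pex2*, *Pex6*, *Pex7*, *Pex14* and *Pex16* (5 of 13) and the oxidation genes *Hsd17b4*, *Acaa1a*, *Acaa1b*, *Scp2*, *Amacr*, *Eci2* and *Pecr* (7 of 15). The largest rise was that of the thiolase gene *Acaa1b*, 5.43-fold, and the smallest among the called genes were those of *Hsd17b4* (1.64-fold) and *Pex2* (1.65-fold). The log2 fold change was positive for 24 genes and negative for *Acox3*, *Ehhadh*, *Abcd2* and *Acot4*, with a median of 0.43 over the 28 genes beside −0.02 over all tested genes. At an unadjusted p under 0.05, 14 genes were higher, against 22.2% of all tested genes, and 1 was lower, against 18.6%. DESeq2 called 12 higher, against 18.0% of all tested genes, and 1 lower, against 14.2%. A stricter rule, with a log2 fold change beyond 1 at an adjusted p under 0.01, was met by 0.125% of tested genes and by no member. The 12 calls depended on 2 control libraries, since no member was called without YT-FF 1 (0 of all tested genes called, 0.0% higher) and none without YT-FF 2 (2 of all tested genes called, 0.0% higher), and 12 and 13 members were then higher at an unadjusted p under 0.05, against 15.2% and 14.6% of all tested genes. Scaling by library totals alone shifted the median of all tested genes to −0.34 and that of the members to 0.12. It left 8 of the 12 rises called, against 6.77% of all tested genes called higher, and lost the calls of *Pex2*, *Pex7*, *Hsd17b4* and *Acaa1a*. It also turned the log2 fold changes of *Pex3*, *Pex10*, *Pex19*, *Pex26* and *Crot* negative.

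**Figure D1:**
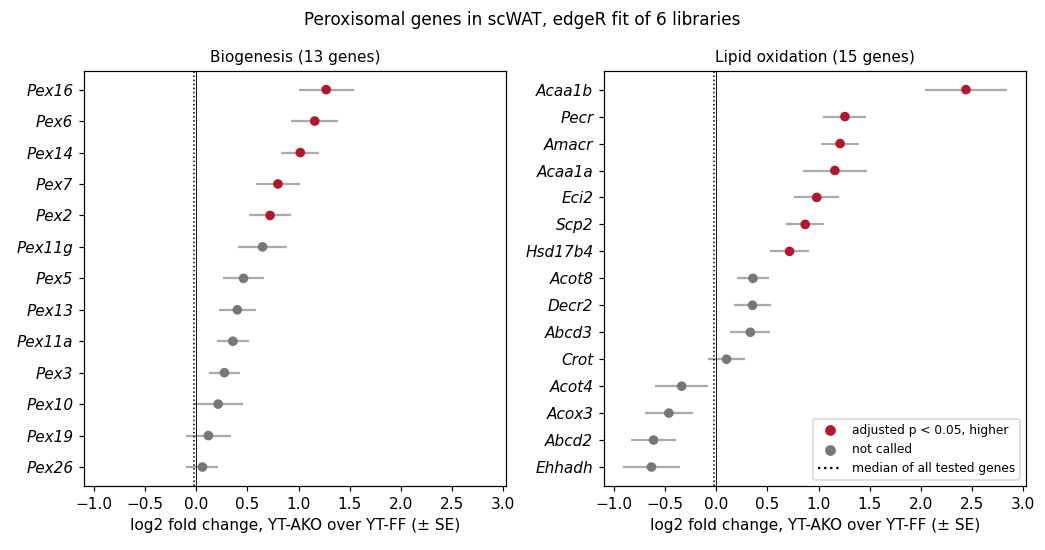
Log2 fold change of each peroxisomal gene in the libraries labelled YT-AKO over YT-FF (points, with bars of ± 1 SE from edgeR, 3 libraries per group); peroxins are on the left and oxidation genes on the right. All 13 peroxins lie above 0 with 5 called higher in red, and the oxidation genes spread from −0.63 (*Ehhadh*) to 2.44 (*Acaa1b*) with 7 called higher and 4 below 0.

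The groups were separate in CPM for 19 of the 28 genes. In 17 genes the lowest library labelled YT-AKO exceeded the highest YT-FF library, as it did in 25.7% of all tested genes. In 2 genes, *Acox3* and *Abcd2*, the order was the reverse, as in 25.8%, and in 9 genes the groups overlapped. The members did not share a single order of the libraries. Among the libraries labelled YT-AKO, 13 of the 28 genes were highest in YT-AKO 2, 9 in YT-AKO 3 and 6 in YT-AKO 1, and among the controls 15 were lowest in YT-FF 1 and 11 in YT-FF 2. Relative to each gene's mean over the 6 libraries, the median log2 level of the 28 genes was −0.45, −0.28 and −0.06 in YT-FF 1, 2 and 3 and 0.24, 0.15 and 0.29 in YT-AKO 1, 2 and 3, so YT-FF 3 was the control library closest to the libraries labelled YT-AKO.

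Peroxisomal membranes are assembled by *Pex3*, *Pex16* and *Pex19*. *Pex16* encodes the membrane protein that recruits *Pex3* and new membrane proteins, and its gene lies at chr2:92374676-92381217 (mm10, plus strand). *Pex16* was measured at 64.0, 61.7 and 86.0 CPM in YT-FF 1, 2 and 3 and at 131, 239 and 140.2 CPM in YT-AKO 1, 2 and 3. The groups did not overlap, and YT-AKO 2 stood far above the other libraries. The rise was 2.41-fold (log2 fold change 1.27, SE 0.270, edgeR's adjusted p = 0.0238) and was 0.94 on the log2 scale without YT-AKO 2. *Pex16* shares 7.16% of its exon bases with *Large2* on the other strand, and fragments there were left out of the counts. *Pex3*, the membrane anchor for *Pex19*, was measured at 33.9 to 42.2 CPM in YT-FF and 43.5 to 47.2 CPM in the libraries labelled YT-AKO, and its log2 fold change of 0.27 was not called (edgeR's adjusted p = 0.201). *Pex19*, the soluble chaperone that brings membrane proteins to *Pex3*, was the most abundant of the 3 on a per-length scale in YT-FF. It was measured at 173, 159 and 195 CPM in YT-FF 1, 2 and 3 and at 194, 139 and 239 CPM in YT-AKO 1, 2 and 3. The groups overlapped, with the lowest value in YT-AKO 2 and the highest in YT-AKO 3, and the log2 fold change was 0.12 (SE 0.222, edgeR's adjusted p = 0.711).

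Matrix enzymes are bound in the cytosol by the receptors *Pex5* and *Pex7*, which dock at *Pex13* and *Pex14*. *Pex14*, the central docking protein, rose 2.02-fold. It was measured at 23.95, 26.9 and 28.99 CPM in YT-FF 1, 2 and 3 and at 43.6, 63.8 and 54.1 CPM in YT-AKO 1, 2 and 3, with no overlap (log2 fold change 1.02, SE 0.184, edgeR's adjusted p = 0.0186). The gene lies at chr4:148960535-149099876 on the minus strand and shares 28.3% of its exon bases with *Gm17029*, so its counts come from the remainder. Its docking partner *Pex13* was measured at 76.7 to 113 CPM in YT-FF and 117 to 128 CPM in the libraries labelled YT-AKO and was not called (log2 fold change 0.40, edgeR's adjusted p = 0.134). *Pex7*, the receptor for enzymes with an amino-terminal targeting signal, among them thiolase, was measured at 23.95, 21.9 and 34.2 CPM in YT-FF 1, 2 and 3 and at 41.9, 54.8 and 42.5 CPM in YT-AKO 1, 2 and 3. Every library labelled YT-AKO was above the highest control library, and the rise was 1.74-fold (log2 fold change 0.80, SE 0.216, edgeR's adjusted p = 0.0388, and 0.0579 without YT-AKO 3). *Pex5*, the receptor for the more common carboxy-terminal signal, was measured at 72.7, 80.1 and 103 CPM in YT-FF 1, 2 and 3 and at 124, 95.8 and 132 CPM in YT-AKO 1, 2 and 3. Its groups overlapped through YT-AKO 2 alone. The log2 fold change of *Pex5* was 0.46 and was not called (SE 0.198, edgeR's adjusted p = 0.121), while without YT-AKO 2 it was 0.59 (adjusted p = 0.0263, with a range of 0.0263 to 0.625 over the alternatives).

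Receptors are released from the membrane for another round by ubiquitin ligases, *Pex2* and *Pex10* among them, and by the ATPase *Pex6*, which *Pex26* anchors. *Pex6* had the tightest control values of the peroxins with a call. It was measured at 115, 112 and 115 CPM in YT-FF 1, 2 and 3 and at 207, 345 and 209.7 CPM in YT-AKO 1, 2 and 3. All libraries labelled YT-AKO were far above the controls, YT-AKO 2 the most, and the rise was 2.23-fold (log2 fold change 1.16, SE 0.229, edgeR's adjusted p = 0.0209). It was called without YT-AKO 2, at a log2 fold change of 0.87 (adjusted p = 0.00213, within a range of 0.000191 to 0.119 over the alternatives), but missed the threshold without YT-FF 3 (adjusted p = 0.0568). *Pex26*, the anchor of *Pex6*, was measured at 18.1 to 18.7 CPM in YT-FF and at 18.1 to 20.5 CPM in the libraries labelled YT-AKO, with a log2 fold change of 0.06 (SE 0.156, edgeR's adjusted p = 0.794). *Pex2* was measured at 41.2, 42.0 and 54.2 CPM in YT-FF 1, 2 and 3 and at 69.1, 94.0 and 63.4 CPM in YT-AKO 1, 2 and 3. The groups were separate, and the rise was 1.65-fold (log2 fold change 0.72, SE 0.204, edgeR's adjusted p = 0.0433), but the call was lost without YT-FF 3 (adjusted p = 0.0626) and without YT-AKO 1 (adjusted p = 0.0540). *Pex10*, its partner in the ligase complex, was measured at 10.8 to 12.7 CPM in YT-FF and 9.61 to 15.99 CPM in the libraries labelled YT-AKO, and the groups overlapped (log2 fold change 0.21, edgeR's adjusted p = 0.524).

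Pex11 proteins elongate and divide peroxisomes. *Pex11a*, the form known to respond to peroxisome proliferators, was measured at 53.0, 52.7 and 58.9 CPM in YT-FF 1, 2 and 3 and at 76.2, 60.0 and 74.6 CPM in YT-AKO 1, 2 and 3. The groups came close without overlapping, with YT-AKO 2 just above YT-FF 3, and the log2 fold change of 0.36 was not called (edgeR's adjusted p = 0.127). With YT-AKO 2 left out, *Pex11a* had a log2 fold change of 0.46 (adjusted p = 0.0206, within a range of 0.0206 to 0.875 over the alternatives). *Pex11g* was measured at 5.75 to 8.53 CPM in YT-FF and at 9.42 to 13.3 CPM in the libraries labelled YT-AKO, with a log2 fold change of 0.65 that was not called (edgeR's adjusted p = 0.0863). It shares 41.1% of its exon bases with *Gm44775*. The log2 ratio of the counts of *Pex11g* to those of *Pex11a*, which does not depend on library scaling, was −2.97 ± 0.302 (SD, n = 3) in YT-FF and −2.67 ± 0.443 (SD, n = 3) in the libraries labelled YT-AKO (two-sided exact permutation test, p = 0.5; the smallest p that 3 against 3 libraries allow is 0.1).

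Fatty acids enter the peroxisome as CoA esters through ABCD transporters. *Abcd2*, the adipose-rich transporter of very-long-chain acyl-CoA, was measured at 410.5, 453 and 500.1 CPM in YT-FF 1, 2 and 3 and at 282, 230.0 and 379.7 CPM in YT-AKO 1, 2 and 3. No library labelled YT-AKO reached the lowest control library. The log2 fold change of −0.61 (SE 0.222) was not called by edgeR (adjusted p = 0.0797), was called lower by DESeq2 (adjusted p = 0.0307, the lowest of a range that reached 0.221 over the alternatives) and was called by edgeR without YT-AKO 3 (−0.82, adjusted p = 0.0476). *Abcd3*, the most general of these transporters, was measured at 110.3, 121 and 140.1 CPM in YT-FF 1, 2 and 3 and at 168, 122 and 177 CPM in YT-AKO 1, 2 and 3. Only YT-AKO 2 lay among the control values. The log2 fold change of *Abcd3* was 0.33 (edgeR's adjusted p = 0.231), and without YT-AKO 2 it was 0.48 (adjusted p = 0.0295, within a range of 0.0162 to 0.928 over the alternatives).

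The oxidase step is followed by the bifunctional enzymes, which hydrate and dehydrogenate the chain. *Acox3*, the pristanoyl-CoA oxidase, was measured at 76.1, 81.1 and 71.5 CPM in YT-FF 1, 2 and 3 and at 60.4, 36.7 and 68.7 CPM in YT-AKO 1, 2 and 3, all below the controls. Its log2 fold change was −0.46 (SE 0.234, edgeR's adjusted p = 0.174) and 0.0055 after a correction for gene length, so that its sign depended on the correction. *Ehhadh*, the L-bifunctional enzyme, was measured at 60.4, 81.1 and 91.9 CPM in YT-FF 1, 2 and 3 and at 54.2, 32.3 and 64.0 CPM in YT-AKO 1, 2 and 3. The groups overlapped, YT-AKO 2 was the lowest library, and the log2 fold change was −0.63 (SE 0.276, edgeR's adjusted p = 0.125). *Hsd17b4*, the D-bifunctional enzyme on which branched and very-long-chain substrates depend, was measured at 162, 181 and 239.8 CPM in YT-FF 1, 2 and 3 and at 331, 306 and 320.1 CPM in YT-AKO 1, 2 and 3. The groups were far apart in CPM, and the rise was 1.64-fold (log2 fold change 0.72, SE 0.191, edgeR's adjusted p = 0.0376, but 0.0646 without YT-AKO 1, 0.0682 without YT-AKO 3 and 0.160 with library totals alone). The 2 bifunctional enzymes thus had log2 fold changes of opposite sign, with a call for *Hsd17b4* alone; the difference between them was not tested.

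Thiolases cleave off acetyl-CoA or propionyl-CoA and end each cycle. *Scp2*, whose longest protein is a thiolase for branched chains and whose shorter one is a sterol carrier protein, had the highest level per length of the 28 genes. It was measured at 483, 498 and 596 CPM in YT-FF 1, 2 and 3 and at 929, 1055 and 897 CPM in YT-AKO 1, 2 and 3. The groups were far apart in CPM, and the rise was 1.83-fold (log2 fold change 0.87, SE 0.184, edgeR's adjusted p = 0.0235). Counts over all exons do not separate the *Scp2* proteins, and 29.7% of its 50-base transcript words also occur in the pseudogene *Scp2-ps2*. *Acaa1a*, the more abundant of the straight-chain thiolase genes, lies at chr9:119339676-119350299 on the plus strand. It was measured at 183, 178 and 207 CPM in YT-FF 1, 2 and 3 and at 293, 652 and 323 CPM in YT-AKO 1, 2 and 3. YT-AKO 2 was far above the other libraries of its label, and the rise was 2.23-fold (log2 fold change 1.16, SE 0.313, edgeR's adjusted p = 0.0386) and 0.70 on the log2 scale without that library. The call of *Acaa1a* was lost without YT-FF 3 (adjusted p = 0.0870).

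*Acaa1b*, its near-identical copy at chr9:119148023-119157093 on the minus strand, had the largest rise of the 28 genes. It was measured at 15.8, 14.6 and 40.3 CPM in YT-FF 1, 2 and 3 and at 109.8, 146 and 127 CPM in YT-AKO 1, 2 and 3. YT-FF 3 was well above the other controls but far below every library labelled YT-AKO. The mean was 23.6 ± 14.5 CPM (SD, n = 3) in YT-FF and 128 ± 18.2 CPM (SD, n = 3) in the libraries labelled YT-AKO, a rise of 5.43-fold (log2 fold change 2.44, SE 0.400, edgeR's adjusted p = 0.0177) that was 2.33 on the log2 scale without YT-AKO 2. Its size turned on the controls more than on the libraries labelled YT-AKO, at 3.07 on the log2 scale without YT-FF 3 and 2.18 without YT-FF 2. *Acaa1a* and *Acaa1b* encode nearly the same enzyme. Their coding sequences are both 1275 bases long and 96.55% identical, with 44 differences and an identical run of 327 bases. The first 90 bases, shown for how closely the copies match, differ at 3 places, in capitals here (mm10, GENCODE transcripts; chr9:119341515-119341604 for *Acaa1a* and chr9:119156905-119156994 for *Acaa1b*).
Acaa1a: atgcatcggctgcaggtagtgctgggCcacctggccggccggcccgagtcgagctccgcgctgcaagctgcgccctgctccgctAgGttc
Acaa1b: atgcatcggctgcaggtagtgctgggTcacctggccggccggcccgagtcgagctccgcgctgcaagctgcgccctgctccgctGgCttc
Fragments that mapped to both copies were left out by the authors' counting, so the values of each copy come from the stretches that tell them apart and are uncertain to that extent. Of the 50-base words of the transcripts of *Acaa1b*, 30.48% also occur in *Acaa1a*, and 12.43% of those of *Acaa1a* occur in *Acaa1b*. The log2 ratio of the counts of *Acaa1b* to those of *Acaa1a* was −3.53, −3.61 and −2.36 in YT-FF 1, 2 and 3 and −1.42, −2.16 and −1.35 in YT-AKO 1, 2 and 3. All libraries labelled YT-AKO were above all controls, with YT-AKO 2 and YT-FF 3 the nearest. The mean difference was 1.53 (two-sided exact permutation test, p = 0.1, which is the smallest p that 3 against 3 libraries allow).

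The sequences before the start sites of these copies were described by their content of G and C and of CG pairs, and they were not aligned. The 100 bases before the RefSeq start (GRCm38.p6), shown because the coding sequences of the copies are nearly the same, lie at chr9:119341194-119341293 for *Acaa1a* and chr9:119157094-119157193 for *Acaa1b*, with each CG pair in capitals.
Acaa1a: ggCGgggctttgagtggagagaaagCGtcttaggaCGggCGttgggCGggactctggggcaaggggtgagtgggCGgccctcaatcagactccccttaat
Acaa1b: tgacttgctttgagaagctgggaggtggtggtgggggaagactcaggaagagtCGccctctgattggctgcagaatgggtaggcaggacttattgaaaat
The window of *Acaa1a* holds 63% G and C and 6 CG pairs, and that of *Acaa1b* holds 52% and 1. The *Acaa1a* window lies inside the counted span of its gene, which begins at chr9:119339676. The *Acaa1b* window lies directly before the counted span of its gene.

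Auxiliary enzymes feed branched and unsaturated chains into the spiral. *Amacr*, the racemase that turns branched acyl-CoA into the form its oxidase accepts, was measured at 11.8, 11.2 and 15.1 CPM in YT-FF 1, 2 and 3 and at 29.4, 32.0 and 27.1 CPM in YT-AKO 1, 2 and 3. The groups were well apart with little spread in either, and the rise was 2.31-fold (log2 fold change 1.21, SE 0.184, edgeR's adjusted p = 0.0171, the lowest of the members). *Eci2*, the isomerase for unsaturated chains, was measured at 68.5, 70.4 and 92.8 CPM in YT-FF 1, 2 and 3 and at 125, 193 and 139 CPM in YT-AKO 1, 2 and 3. It rose 1.98-fold, with no overlap (log2 fold change 0.98, SE 0.218, edgeR's adjusted p = 0.0257). *Pecr*, the trans-2-enoyl-CoA reductase, which saturates rather than shortens its substrate, was measured at 10.2, 9.14 and 10.7 CPM in YT-FF 1, 2 and 3 and at 20.8, 30.1 and 21.0 CPM in YT-AKO 1, 2 and 3. Again no libraries overlapped, and the rise was 2.39-fold (log2 fold change 1.26, SE 0.210, edgeR's adjusted p = 0.0177). *Decr2*, the peroxisomal dienoyl-CoA reductase, was measured at 23.6 to 29.5 CPM in YT-FF and 28.1 to 39.4 CPM in the libraries labelled YT-AKO. The log2 fold change of *Decr2* was 0.35 (edgeR's adjusted p = 0.180) and 0.47 without YT-AKO 2 (adjusted p = 0.0325, the lowest of a range that reached 0.886 over the alternatives).

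Shortened chains leave the peroxisome as carnitine esters or free acids, and 3 members act at this step. *Crot*, the carnitine octanoyltransferase, was measured at 52.6 to 66.4 CPM in YT-FF and 50.9 to 73.5 CPM in the libraries labelled YT-AKO, with a log2 fold change of 0.10 (SE 0.185, edgeR's adjusted p = 0.707). *Acot8*, the broad acyl-CoA thioesterase, was measured at 15.5 to 18.2 CPM and 21.3 to 22.2 CPM, without overlap but with a log2 fold change of 0.36 that was not called (SE 0.159, edgeR's adjusted p = 0.130). *Acot4*, the thioesterase for succinyl-CoA and other dicarboxylic esters, was measured at 9.93 to 16.8 CPM and 8.43 to 12.7 CPM (log2 fold change −0.34, SE 0.261, edgeR's adjusted p = 0.354).

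**Figure D2:**
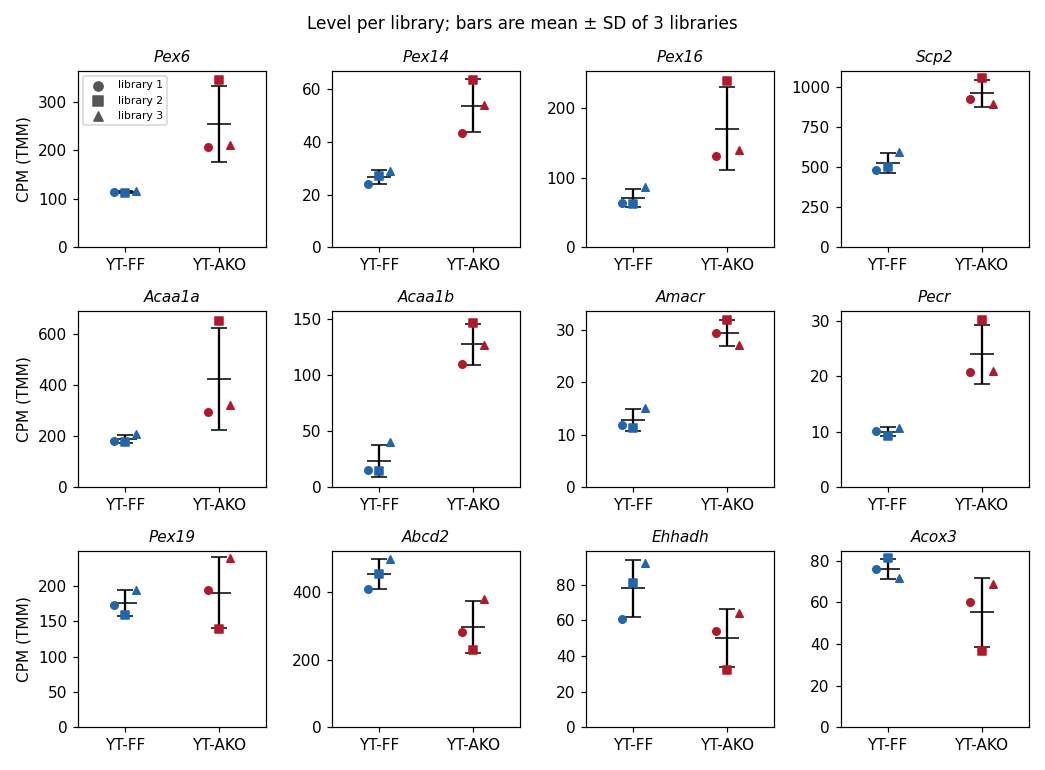
CPM of 12 peroxisomal genes in each library (circles, squares and triangles are libraries 1, 2 and 3 of a group; bars are the mean ± SD of 3 libraries; each vertical axis starts at 0). The groups do not overlap in the upper 8 genes, where YT-AKO 2 is the highest library throughout on this scale. They overlap in *Pex19* and *Ehhadh*. In *Abcd2* and *Acox3* every library labelled YT-AKO is below the controls.

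Compared per length, in TPM, transcript levels scaled by summed exon length and by library, the 28 genes spanned a wide range in YT-FF, from 7.76 ± 2.11 TPM for *Acot4* to 572 ± 42.3 TPM for *Scp2* (SD, n = 3). After *Scp2* came *Abcd2* at 290 ± 21.3, *Hsd17b4* at 216 ± 35.8, *Pex19* at 174 ± 9.71, *Acaa1a* at 163 ± 5.84 and *Pex16* at 150 ± 21.3 TPM. *Scp2* and *Abcd2* were each clear of the next gene in all 3 control libraries, while the ranges of neighbours in the order from *Hsd17b4* to *Pex16* overlapped. At the low end *Acot4*, *Pex11g* at 7.93 ± 1.77 TPM and *Pex7* at 8.33 ± 1.65 TPM did not differ beyond their spread. In the libraries labelled YT-AKO *Scp2* again led at 659 ± 113 TPM, followed by *Hsd17b4* at 228 ± 61.7, *Pex16* at 219 ± 15.4 and *Acaa1a* at 214 ± 39.1 TPM, whose ranges overlapped. *Abcd2* stood at 124 ± 53.3 TPM and *Acaa1b* at 154 ± 22.6 TPM, against 44.8 ± 25.3 TPM for *Acaa1b* in YT-FF.

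On the TPM scale, which takes no TMM factor, fewer of the 28 genes were separate between the groups in the higher direction. Every library labelled YT-AKO was above every control library for 8 genes in TPM, *Pex6*, *Pex14*, *Pex16*, *Acaa1a*, *Acaa1b*, *Amacr*, *Eci2* and *Pecr*, all of them among the 12 called, as it was for 7.52% of all tested genes. The order was the reverse for 7 genes, *Pex3*, *Pex26*, *Acox3*, *Ehhadh*, *Abcd2*, *Crot* and *Acot4*, as it was for 54.5% of all tested genes. The groups overlapped for 13, including the called genes *Pex2*, *Pex7*, *Hsd17b4* and *Scp2*. YT-AKO 2 was the highest library in TPM for *Pex6*, *Pex16* and *Acaa1a*. It was the lowest of its label in TPM for *Pex14*, *Scp2*, *Acaa1b*, *Amacr* and *Pecr*, in which it was the highest in CPM. Summed over the 28 genes, the level was 2410 to 2998 CPM in YT-FF and 3643 to 4239 CPM in the libraries labelled YT-AKO, without overlap, but 2324 to 2749 TPM and 2088 to 2826 TPM, with YT-AKO 2 the lowest. The sum was thus separate between the groups in CPM and not in TPM, a scale on which most tested genes were lower in the libraries labelled YT-AKO. Log2 fold changes were lower for genes with longer exons (Spearman's rho −0.442 across the 28 genes and −0.376 across the 16807 tested genes, which share libraries and are not independent), and with a correction for length 11 members were called higher, against 9.57% of all tested genes, with *Pex2* no longer called (adjusted p = 0.104).

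The promoters were searched for a pair of elements, since PPAR receptors are textbook activators of peroxisomal oxidation genes and TEAD factors are known partners of YAP and TAZ. For *S100b*, however, the study reports that YAP and TAZ acted without binding to TEAD factors. RefSeq windows from 250 bases before to 50 bases after the start were found for 23 of the 28 genes. A direct repeat of AGGNCA with 1 base between, a form of the PPAR element, was in the window of none of the 23 genes on either strand and in 0.323% of the 11767 tested genes with a window. At so low a share, 23 windows are too few to show whether the members differ from other genes. A looser form, with NGGNCA in place of AGGNCA, was in 2 of 23 (8.70%), *Pex11g* and *Acot4*, and in 2.52% of the tested genes. Neither gene was called. The stretches around the matches, which are in capitals, lie at chr8:3467704-3467732 for *Pex11g* and chr12:84038358-84038386 for *Acot4*, where the match is on the strand opposite to the gene.
Pex11g: gcagtactCGGACAAAGGGCAggcagttg
Acot4: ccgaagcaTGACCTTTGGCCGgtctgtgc
The TEAD letters GGAATG were in the windows of 4 of 23 genes (17.4%), *Pex11a*, *Acox3*, *Ehhadh* and *Pecr*, and in 14.7% of the tested genes. Among them only *Pecr* was called, and its match is on the opposite strand, in capitals within chr1:72284535-72284556.
Pecr: tctcttttCATTCCtctgtcgt
No windows were found for *Abcd2*, *Amacr*, *Hsd17b4*, *Pex19* and *Pex2*. A match describes letters in a window and is not a binding site, and known elements of peroxisomal genes can lie outside such windows.

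Other genes of the organelle moved as the members did in part. Of 46 further peroxisomal genes, 40 were tested, 16 rose (40%), against 12.6% of all tested genes, and 3 fell (7.5%), against 9.01%, with a median log2 fold change of 0.58. As with the members, edgeR called none of these without YT-FF 1 or without YT-FF 2, where 16 and 18 were higher at an unadjusted p under 0.05 (15.2% and 14.6% of all tested genes) and 3 and 3 lower (11.9% and 11.7%). Leaving out YT-FF 3 gave 8 rises and 0 falls, against 4.03% and 3.02% of all tested genes, and leaving out YT-AKO 3 gave 11 rises and 1 fall, against 10.2% and 5.12%. Among 15 tested genes of biogenesis, membrane transport and fission, 4 rose. *Fis1*, the adaptor for fission of peroxisomes and mitochondria, rose from 54.7 to 67.4 CPM in YT-FF to 108 to 309 CPM in the libraries labelled YT-AKO, where YT-AKO 2 alone exceeded 109 CPM (log2 fold change 1.54, SE 0.412, edgeR's adjusted p = 0.0379, but 0.0894 without YT-FF 3, and 0.85 on the log2 scale without YT-AKO 2). Among 13 tested genes of oxidation, 7 rose. *Phyh*, which starts the α-oxidation of phytanic acid, was measured at 146, 151 and 197 CPM in YT-FF 1, 2 and 3 and at 262, 271 and 283 CPM in YT-AKO 1, 2 and 3, with no overlap (log2 fold change 0.72, SE 0.175, edgeR's adjusted p = 0.0300, but 0.0607 without YT-AKO 3). With all 6 libraries edgeR called none of the members *Abcd2*, *Abcd3* and *Acox3* higher.

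The tested genes of hydrogen peroxide breakdown and other functions included 4 of 7 that rose, against 12.6% of all tested genes. *Cat*, catalase, was measured at 491, 525 and 709 CPM in YT-FF 1, 2 and 3 and at 1146, 733 and 1290.0 CPM in YT-AKO 1, 2 and 3. The groups did not overlap, but the log2 fold change of 0.88 (SE 0.268) missed the threshold (edgeR's adjusted p = 0.0517), and it was 1.08 without YT-AKO 2 (adjusted p = 0.00457, the lowest of a range that reached 0.189 over the alternatives). *Prdx5*, a peroxiredoxin shared by peroxisomes, mitochondria and cytosol, had the largest rise called among the further genes, from 96.4 to 156 CPM in YT-FF to 233 to 593 CPM in the libraries labelled YT-AKO (log2 fold change 1.57, SE 0.394, edgeR's adjusted p = 0.0326, but 0.0618 without YT-FF 3, and 0.995 on the log2 scale without YT-AKO 2). Ether lipid synthesis, whose products include the plasmalogens, starts in the peroxisome. Of its 5 genes, *Far2*, *Agps* and *Far1* fell (60%), against 9.01% of all tested genes. They fell by 1.16, 0.64 and 0.51 on the log2 scale (edgeR's adjusted p = 0.0471, 0.0273 and 0.0496). *Far2* was low throughout, at 3.66 to 4.99 CPM in YT-FF and 1.36 to 2.66 CPM in the libraries labelled YT-AKO. None of these falls was called after the correction for gene length, nor without YT-FF 3 (adjusted p = 0.0786, 0.0749 and 0.0966). *Agps* and *Far1* were also not called without YT-AKO 3 (0.0620 and 0.122), nor *Far2* without YT-AKO 1 (0.0795). *Agps*, which makes the ether bond, was measured at 59.5, 65.5 and 67.2 CPM in YT-FF 1, 2 and 3 and at 45.8, 38.3 and 38.9 CPM in YT-AKO 1, 2 and 3. *Dhrs7b*, which encodes the acyl-dihydroxyacetone phosphate reductase of the same pathway, rose from 70.4 to 84.7 CPM in YT-FF to 149.8 to 301 CPM in the libraries labelled YT-AKO (log2 fold change 1.45, SE 0.280, edgeR's adjusted p = 0.0204, but 0.0511 without YT-FF 3).

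For reference, 14 of 18 genes of mitochondrial fatty acid oxidation rose (77.78%), against 12.6% of all tested genes. Their median log2 fold change was 1.13, beside 0.36 for the 15 peroxisomal oxidation genes and 0.46 for the 13 peroxins. These medians are descriptions, and the difference between the lists was not tested. The thermogenic markers *Ucp1* and *Cidea* had log2 fold changes of 5.27 and 3.17 (edgeR's adjusted p = 0.00782 and 0.00729), above that of any of the 28 members. *Ppara*, which encodes the PPAR form best known for peroxisomal genes, was measured at 10.4 to 17.2 CPM in YT-FF and 5.37 to 13.9 CPM in the libraries labelled YT-AKO and was not called (log2 fold change −0.36, edgeR's adjusted p = 0.480). The more abundant *Pparg* was measured at 144 to 184 and 142 to 314 CPM and was not called either (log2 fold change 0.29, edgeR's adjusted p = 0.496).

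**Figure D3:**
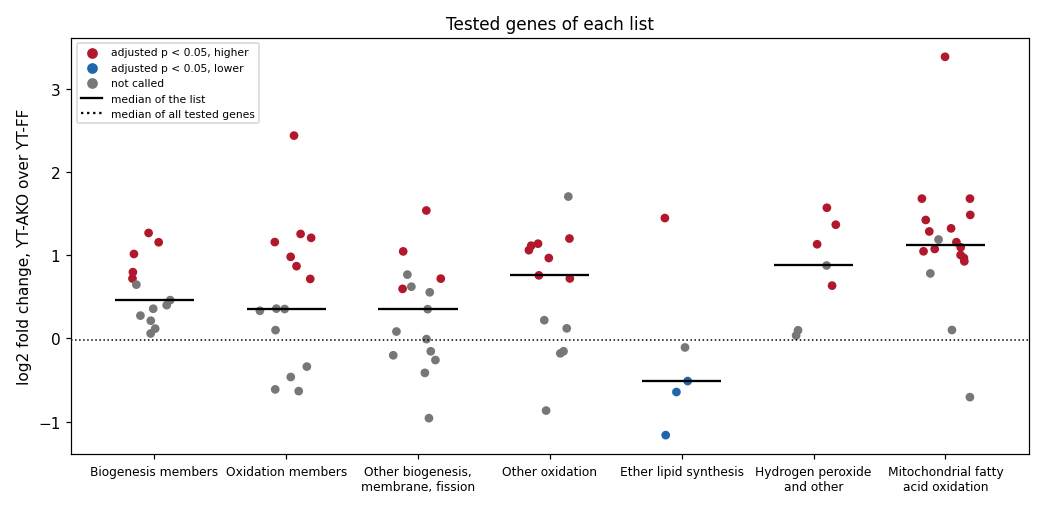
Log2 fold changes of the tested genes of each list in the libraries labelled YT-AKO over YT-FF (points, spread sideways at random; red and blue are called higher and lower by edgeR; bars are list medians and the dotted line is the median of all tested genes, −0.02). The ether lipid list is the only one of the 7 with a median below 0 and with genes called lower, and the mitochondrial list has the highest median, 1.13.

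The count of called members changed with the libraries and the scaling more than their direction did. Over the 6 fits that each lacked a library, the number called higher ran from 0 to 16, the highest without YT-AKO 2 (against 16.9% of all tested genes), while the median log2 fold change of the 28 genes ran from 0.36 to 0.60. Under the settings with all 6 libraries other than library totals alone it stayed between 0.39 and 0.53.

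**Figure D4:**
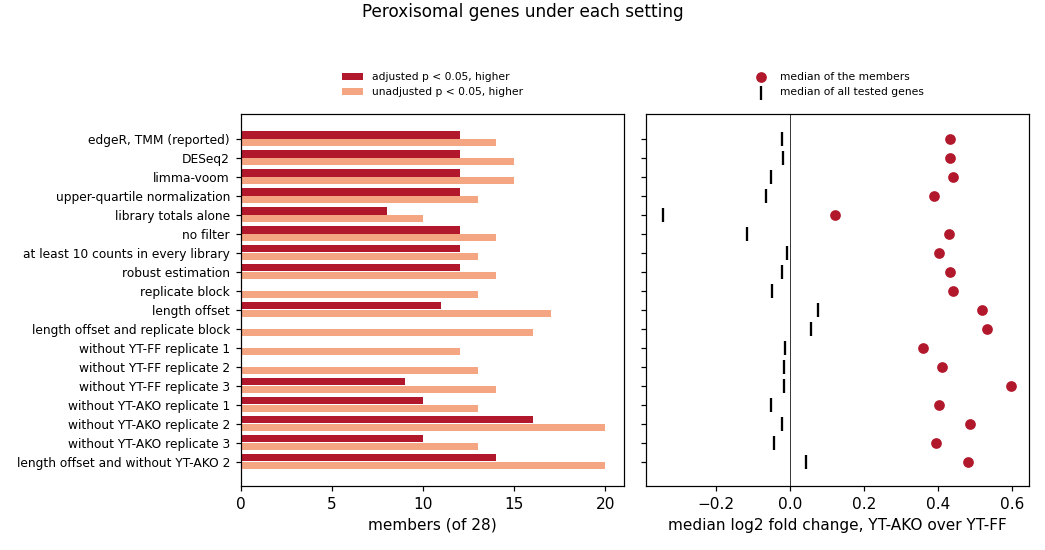
Number of the 28 peroxisomal genes higher in the libraries labelled YT-AKO under each setting (left; dark bars at an adjusted and light bars at an unadjusted p under 0.05) and the median log2 fold change of the 28 genes beside that of all tested genes (right). Dark bars vanish without YT-FF 1, without YT-FF 2 and with the replicate number as a block, where light bars still reach 12 to 16, and the median of the members lies above that of all tested genes under every setting shown.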

How the data were processed

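Paired-end RNA-seq of total RNA was done on scWAT of 3 mice per genotype. Reads were aligned by the authors with HISAT2 to mm10, and the authors deposited raw counts of fragments per gene, made with featureCounts 2.0.1 on the exons of GENCODE vM25 without regard to strand. By the counter's default, fragments with several mapping places or within several genes were not counted. Of 55401 genes, 55141 were matched to a symbol by identifier. Depth was 17740987 to 21838493 counts per library, so that 3 counts correspond to 0.128 to 0.177 CPM; this covers counting error only.

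Libraries were grouped by the labels. Counts were tested in R 4.3.3 with edgeR 4.0.16 (TMM, filterByExpr with minimum count 10 and minimum total 15, quasi-likelihood test, Benjamini-Hochberg adjustment over 16807 genes; biological coefficient of variation 0.288). TPM used summed exon lengths. Ratios added 0.5 counts. The alternatives were DESeq2 1.42.0, limma-voom (limma 3.58.1), upper-quartile factors, scaling by totals alone, no filter, at least 10 counts in all libraries, robust dispersions, a block for the replicate number, a length offset (spline with 6 degrees of freedom), block and offset together, leaving out each library, other added counts and TPM for the ratios, and other letters and windows for the promoter search. The scripts were tested on simulated data, in which 97 genes changed by 1 and 95 by 2 on the log2 scale. There edgeR called 13.4% and 76.8% of them. The data had 3636 calls, so these shares do not carry over directly. A gene that was not called is not thereby shown to be unchanged.

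The members and lists were chosen with earlier results of these data known, so no list was tested. Named are the members, *Yap1*, *Wwtr1*, *Ucp1*, *Cidea*, the 3 largest called rises and falls among the further peroxisomal genes, and *Cat* and *Phyh*; other genes that the rule named are not reported here. *Ppara*, *Adipoq* and the named cell markers come from the marker lists. Coding sequences were rebuilt from GENCODE transcripts of mm10, and promoters are those of RefSeq. Targeting signals of the proteins were not analysed here.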

Additional observations from a re-analysis of the deposited data

How the results depend on the processing

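All 12 calls of members kept a positive log2 fold change under every alternative. The number called higher (12 in the reported fit) stayed at 12 with DESeq2, limma-voom, upper-quartile factors, no filter, at least 10 counts in every library and robust estimation, and was 11 with the length offset. Of all tested genes, the settings that kept 12 called 8.63% (no filter) to 18.0% (DESeq2) higher, and the length offset called 9.57% higher. Leaving out each library gave 0 to 16 members called higher, 0 to 1 called lower (*Abcd2*, without YT-AKO 3), 0 to 7 peroxins, 0 to 9 oxidation genes, and 0 to 21 further peroxisomal genes called higher and 0 to 3 lower. All of these counts were 0 without YT-FF 1 and without YT-FF 2, when edgeR called 0 and 2 of all tested genes. The share of all tested genes called in the fits that lacked a library ran from 0.0% to 16.9% higher and from 0.0% to 14.0% lower, both highest without YT-AKO 2. Log2 fold changes that reversed without YT-AKO 3 were those of *Pex19* (−0.071, with a range of −0.071 to 0.30 over the libraries left out) and *Crot* (−0.014, range −0.014 to 0.23). With library totals alone, 8 members were called higher and 1 lower, 3 peroxins and 10 further genes were called higher, the members' median was 0.12, and *Pex3* (−0.044), *Pex10* (−0.087), *Pex19* (−0.18), *Pex26* (−0.27) and *Crot* (−0.20) reversed. Over all tested genes that scaling gave 1137 higher and 2828 lower calls in place of 2121 and 1515. DESeq2 called 1 member lower, and no filter left 1 further gene called lower. *Acox3* reversed with the length offset (0.0055), which called 0 further genes lower, and with that offset without YT-AKO 2 (0.14, and 0 further genes lower), a setting chosen after seeing the data. The cause of these changes was not tested.

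Deviations from the group means correlated at 0.126, −0.118 and −0.0893 between libraries of the same replicate number and at −0.14 to 0.16 between the others. With 3 libraries per group, these values cannot settle whether the number pairs libraries. With the replicate number as a block, alone or together with the length offset, 0 members, 0 peroxins, 0 oxidation genes and 0 further genes in either direction were called, of 33 and 65 calls over all genes. At an unadjusted p under 0.05, 13 and 16 members were then higher, against 18.4% and 19.0% of all tested genes. The ratios of *Acaa1b* to *Acaa1a* and of *Pex11g* to *Pex11a* kept their sign throughout, at 1.31 to 1.93 and 0.05 to 0.47 with a library left out. The PPAR repeat was in the windows of 2 members with 1 fewer fixed letter in each repeat and in 0 otherwise.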
